A study of Mus musculus with 2 samples.

Results

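Osteoclasts are the bone-resorbing giant cells of the myeloid lineage, and 10 genes that make or mark them were followed through the cells of subcutaneous lung tumors of mice, out of 32285 genes in the deposited feature table, of which 23372 had at least 1 read in a cell that was kept. The members are Ctsk, Acp5, Atp6v0d2, Slc9b2, Ocstamp, Dcstamp, Nfatc1, Oscar, Tnfrsf11a and Tnfsf11, and each of the 10 had reads in both libraries. They were chosen by earlier results on the same cells, in which they were read across macrophage states, fibroblasts and the other classes and between the libraries, so that every level below is a description and none of them is a test.

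Tumors were grown from Lewis lung carcinoma (LLC) cells, a mouse lung cancer line, in 2 groups of C57BL/6 mice. The control group, sGC Ctr, carried Gucy1b1 flox/flox alleles, and the sGC ∆PC group carried the same floxed alleles together with Cspg4-CreER T2, a tamoxifen-inducible recombinase driven from the gene of the pericyte proteoglycan NG2. Gucy1b1 encodes the β1 subunit of soluble guanylyl cyclase (sGC), the receptor for nitric oxide, and mice of both groups were given tamoxifen 5 times when 4 weeks old, LLC cells under the skin when 8 weeks old, and had their tumors removed 2 weeks later. Cells from 3 tumors were pooled in each group and made into 1 droplet library with 3′ end capture, so that mice cannot be told apart, every other cell that expresses Cspg4 could also recombine, and there is 1 sample in each group. No test was therefore possible, and intervals in brackets are exact 95% intervals that cover counting error only. Unique molecular identifiers (UMIs), which count captured RNA molecules rather than amplified reads, are given as raw numbers and as counts per 1000000 UMIs of the class (CPM), a level that with 3′ capture does not grow with transcript length.

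Osteoclasts arise when macrophage precursors receive the colony-stimulating factor CSF1 and the cytokine RANKL, the product of Tnfsf11, through its receptor RANK, the product of Tnfrsf11a. Co-stimulatory receptors such as OSCAR add a calcium signal, the transcription factor NFATc1 then switches on the osteoclast program, and DC-STAMP and OC-STAMP allow the cells to fuse. The mature cell acidifies the bone surface through a proton pump and digests the matrix with the collagen-cleaving protease cathepsin K (Ctsk). It also makes tartrate-resistant acid phosphatase (TRAP, Acp5).

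On the mm10 genome (GRCm38) used for the counts, Ctsk lies on the + strand of chromosome 3 from 95499256 to 95509362, Acp5 on the − strand of chromosome 9 from 22126727 to 22135711, Oscar on the − strand of chromosome 7 from 3609813 to 3616157, and Tnfsf11 on the − strand of chromosome 14 from 78277445 to 78308043. Acp5 overlaps 6530413G14Rik and Nfatc1 overlaps AC123818.1, in both cases on the other strand. RefSeq promoter windows, from 250 bases before to 50 after a start site on GRCm38.p6, were at hand for 6 of the 10 members in 8 windows and not for Atp6v0d2, Ocstamp, Dcstamp and Nfatc1. They were searched on both strands for the NFAT core TGGAAA, the PU.1 core GAGGAA, the E-box CATGTG bound by MITF and TFE factors, and the AP-1 motif TGANTCA, which occurred in 21.4%, 28.3%, 14.2% and 7.81% of 32851 promoter windows of the same length. The 3 windows of genes that were high in the same macrophages and held a match are printed with the window of Tnfsf11, the ligand, which held none. Capitals mark the matches. The Ctsk window, chr3:95498960-95499259 (+), holds 1 NFAT core and 2 PU.1 cores. The window at the third of the Acp5 start sites, chr9:22130549-22130848 (−), holds 1 NFAT core and 1 E-box. The Oscar window, chr7:3616108-3616407 (−), holds 2 NFAT cores, 2 PU.1 cores and 1 E-box, and the Tnfsf11 window is chr14:78307994-78308293 (−).
Ctsk: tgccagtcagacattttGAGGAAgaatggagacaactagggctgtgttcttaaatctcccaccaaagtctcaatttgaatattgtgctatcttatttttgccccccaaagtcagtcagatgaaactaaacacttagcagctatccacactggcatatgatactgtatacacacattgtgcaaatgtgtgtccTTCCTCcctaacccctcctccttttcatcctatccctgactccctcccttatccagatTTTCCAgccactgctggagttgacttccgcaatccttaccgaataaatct
Acp5: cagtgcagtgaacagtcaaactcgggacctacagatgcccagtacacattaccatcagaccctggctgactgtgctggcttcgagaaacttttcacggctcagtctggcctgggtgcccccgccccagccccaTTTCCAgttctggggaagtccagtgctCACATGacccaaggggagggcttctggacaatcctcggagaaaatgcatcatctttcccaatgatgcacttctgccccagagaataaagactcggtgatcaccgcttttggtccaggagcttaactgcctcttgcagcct
Oscar: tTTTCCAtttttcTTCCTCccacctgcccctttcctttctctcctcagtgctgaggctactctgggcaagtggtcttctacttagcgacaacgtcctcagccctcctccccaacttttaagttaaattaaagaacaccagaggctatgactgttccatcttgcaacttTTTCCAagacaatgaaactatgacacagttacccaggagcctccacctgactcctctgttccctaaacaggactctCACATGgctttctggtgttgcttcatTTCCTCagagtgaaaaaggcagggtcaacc
Tnfsf11: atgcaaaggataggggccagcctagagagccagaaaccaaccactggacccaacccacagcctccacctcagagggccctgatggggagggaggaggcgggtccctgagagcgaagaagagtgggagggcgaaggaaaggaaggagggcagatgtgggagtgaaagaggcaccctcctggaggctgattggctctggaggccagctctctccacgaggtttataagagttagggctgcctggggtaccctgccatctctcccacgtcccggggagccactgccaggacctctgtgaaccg
The other 2 Acp5 windows and those of Slc9b2 and Tnfrsf11a held no match, and AP-1 was found in none of the 8. A match is a string of letters and not a shown binding site, and nothing was read from its absence.

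After filtering, 12220 sGC Ctr cells and 22498 sGC ∆PC cells were kept, with a median of 35776.5 and 8685 UMIs per cell, and 131 barcodes occurred in both libraries. Cells were placed in classes by summed marker genes, none of them a member, and 820 (6.71%) and 4044 (17.97%) cells that met the marker rule of more than 1 class were set aside. In the pericyte class, the targeted Gucy1b1 was at 127 CPM (96.9 to 164, 59 UMIs) in sGC Ctr and 43.5 CPM (23.2 to 74.4, 13 UMIs) in sGC ∆PC. Of 2867 and 4381 macrophages, 48 (1.67%, 1.24 to 2.21) and 62 (1.42%, 1.09 to 1.81) exceeded 4 Mmp9 UMIs per 10000 and held at least 2, and they are called Mmp9+ macrophages. Mmp9 encodes a gelatinase that osteoclasts and neutrophils both make. Granulocyte markers in these cells summed to 0.238 and 0.328 UMIs per 10000 (17 and 19 UMIs), against 822 and 530 in granulocytes, with G0s2 at 0 in sGC Ctr and Cxcr2 and Retnlg at 0 in sGC ∆PC. All 8 macrophage markers were detected in the summed class, at 31.9 and 29.0 UMIs per 10000, which was below the 100 and 88.1 of MHC class II macrophages. The class rules used both lists, and cells that also met the granulocyte rule were set aside. The low granulocyte sum and the presence of macrophage markers were thus largely set by the rules. The osteoblast markers had no UMI. Counted per cell, the macrophage markers were uneven. Csf1r was found in 45 of 48 and 45 of 62 cells, but C1qa in 21 and 39. The 10 cells richest in C1qa held 95.7% and 75.7% of its UMIs. The median depth of the Mmp9+ macrophages was 14251.5 and 4005 UMIs in the control and the sGC ∆PC library, against 10014 and 4036 in macrophages outside the gate.

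The Mmp9+ macrophages stood first for 9 of the 10 members in both libraries, and the exception was Tnfsf11, which had no UMI there. The members were chosen with such levels known. How many of all genes stood first in these macrophages was not counted, so nothing is read from the 9. These cells held 0.150% (sGC Ctr) and 0.141% (sGC ∆PC) of the UMIs of all kept cells, but 34.7% and 22.5% of the UMIs of the 10 members together. Acp5 and Ctsk were the most abundant members there. Ctsk reached 6813 CPM in sGC Ctr (4871 UMIs) and 5894 CPM in sGC ∆PC (3413 UMIs), which was 47.7% and 29.1% of all Ctsk UMIs of the library. Acp5 was higher, at 10882 CPM (7780 UMIs) and 8248 CPM (4776 UMIs), and these cells held 44.4% and 27.1% of its UMIs. Atp6v0d2, which encodes the d2 subunit of the proton pump and also takes part in precursor fusion, was at 793 CPM (729 to 861) and 817 CPM (745 to 894). Slc9b2, a sodium-proton exchanger strongly induced in osteoclasts, was at 511 CPM (459 to 566) and 475 CPM (420 to 535). Each of these 4 genes was placed far above the next class, and the intervals of first and second place did not overlap for any of them.

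**Figure D1:**
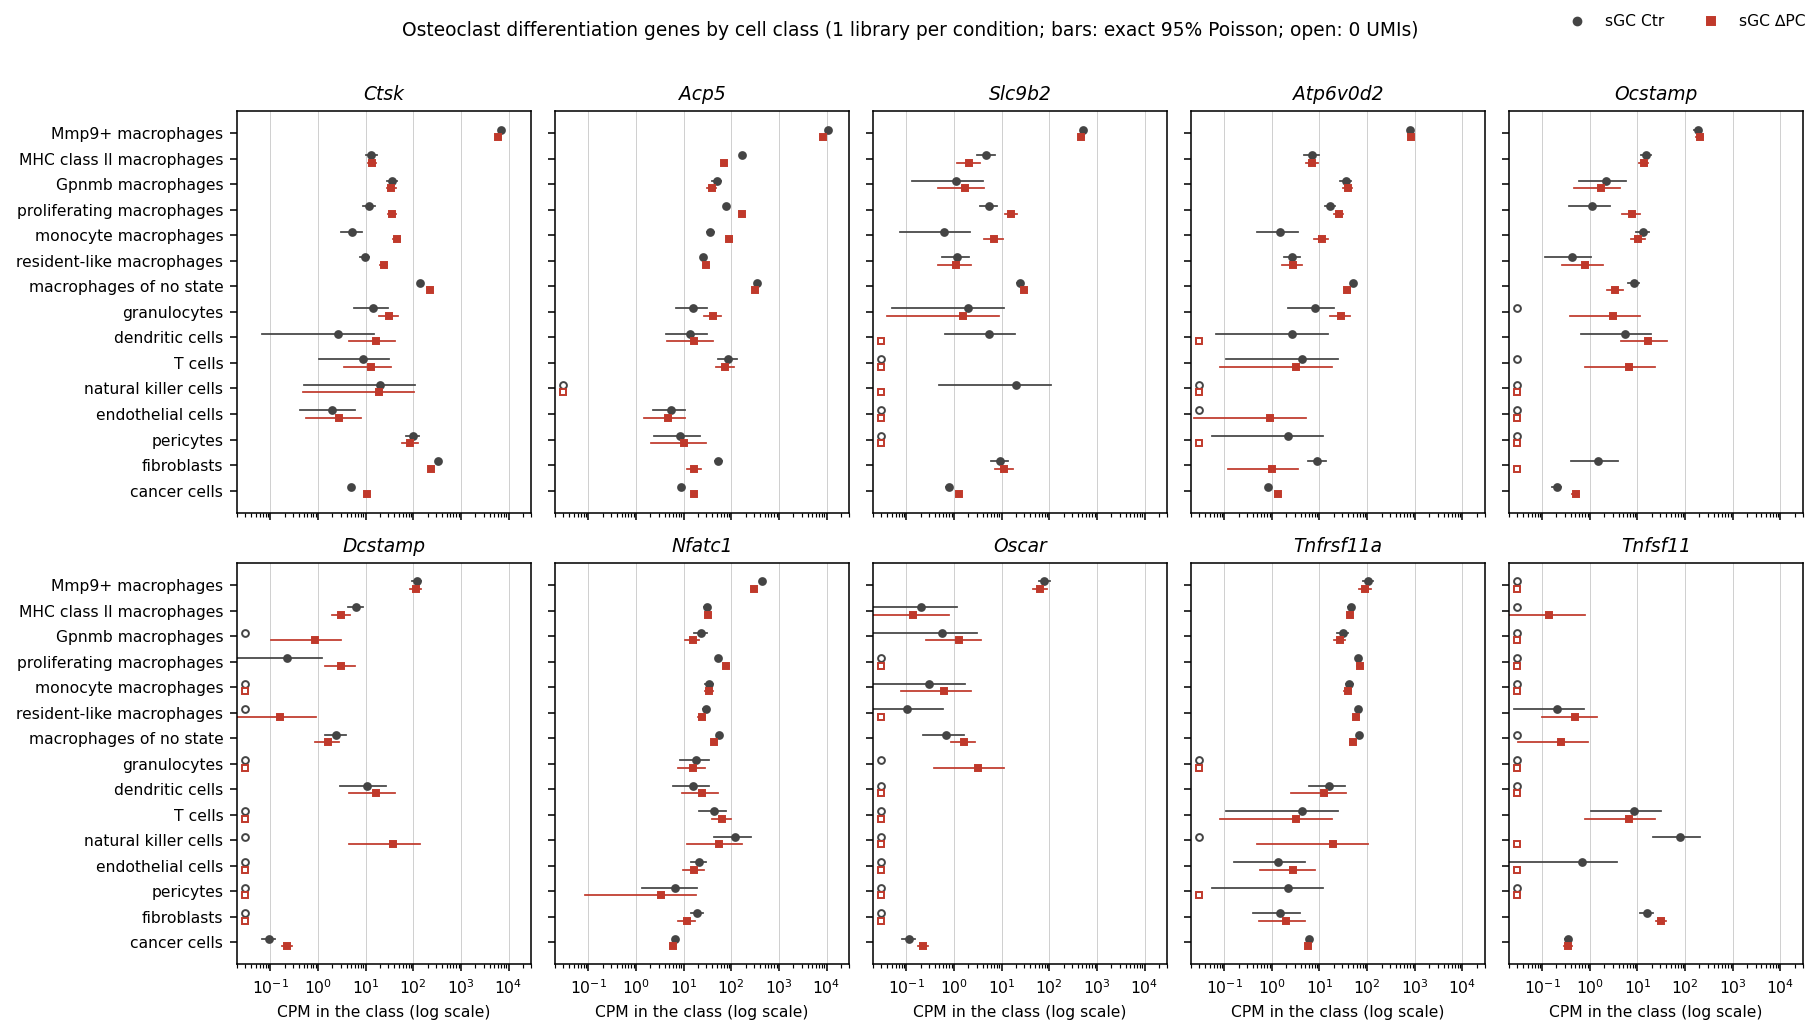
Level of the 10 members (CPM, log axis) in each class of cells, with 1 point per library and exact 95% counting intervals, and open symbols at the left where a class had no UMI. The Mmp9+ macrophages hold the highest point for 9 members, with Acp5 at 10882 and 8248 CPM, and Tnfsf11 has no UMI there.

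The next places differed by gene. For Ctsk, fibroblasts came second at 330 CPM (308 to 352) in sGC Ctr and 235 CPM (214 to 257) in sGC ∆PC, followed by macrophages that met no state's rule, at 140 CPM (132 to 149) and 225 CPM (215 to 236). The intervals of fibroblasts and of these macrophages were apart in sGC Ctr and overlapped in sGC ∆PC. For Acp5, macrophages of no state came second, at 351 and 316 CPM. Both levels of this class rested on few cells. In it, 6 of 684 and 16 of 1388 cells had at least 20 UMIs of each gene per 10000. They held 75.1% and 85.8% of its Ctsk UMIs and 46.9% and 82.0% of its Acp5 UMIs. Without them Ctsk was at 35.5 and 32.8 CPM and Acp5 at 190 and 58.4 CPM. Ctsk is known outside bone from fibroblasts, and Acp5 from macrophages.

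The fusion genes were lower and found in fewer cells. Ocstamp was at 182 CPM (152 to 216, 130 UMIs) in sGC Ctr and 202 CPM (167 to 242, 117 UMIs) in sGC ∆PC. Dcstamp was at 119 CPM (94.96 to 147, 85 UMIs) and 112 CPM (86.6 to 143, 65 UMIs). Of the other macrophage states, the MHC class II macrophages were highest for Ocstamp, at 15.4 CPM (74 UMIs) and 13.5 CPM (96 UMIs), with monocyte macrophages next at 13.1 and 10.4 CPM. For Dcstamp they held 30 UMIs (6.25 CPM) and 22 UMIs (3.09 CPM), next to 3.11 CPM (9 UMIs) in proliferating macrophages of sGC ∆PC. Dendritic cells, after which Dcstamp was named, held 4 Dcstamp UMIs in each library. In sGC ∆PC the 2 Dcstamp UMIs of 11 natural killer cells gave the second place, with an interval that reached that of the Mmp9+ macrophages.

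Among the regulators, Nfatc1 was at 453 CPM (405 to 505, 324 UMIs) in the Mmp9+ macrophages of sGC Ctr and 304 CPM (261 to 352, 176 UMIs) in those of sGC ∆PC. Its reads were spread more widely than those of Ctsk and Acp5. The Mmp9+ macrophages held 6.63% and 4.43% of its UMIs, and cancer cells 56.0% and 48.9%, at a level of 6.69 and 5.97 CPM. Of all UMIs of kept cells, cancer cells held 85.9% and 79.0%. Oscar, the collagen-binding co-stimulatory receptor, had 57 UMIs (79.7 CPM, 60.4 to 103) and 38 UMIs (65.6 CPM, 46.4 to 90.1) in the Mmp9+ macrophages and 9 and 19 UMIs in all other macrophages. Cancer cells held 46 (36.5%) and 73 (45.6%) of its UMIs, at a level of 0.112 and 0.224 CPM. Tnfrsf11a behaved differently from the rest. It was at 106 CPM (83.8 to 133) and 91.5 CPM (68.6 to 120) in the Mmp9+ macrophages, and at 31.0 to 68.4 CPM and 26.6 to 69.5 CPM in the other macrophage states. Of its UMIs, 1.57% and 1.28% lay in the Mmp9+ macrophages and 37.6% and 35.2% in macrophages outside the gate. Cancer cells held 50.3% and 46.2%, at a level of 5.93 and 5.86 CPM. In sGC ∆PC the interval of the second place, proliferating macrophages at 69.5 CPM (60.2 to 79.8), overlapped that of the first. No Tnfrsf11a UMI was found in granulocytes of either library, where the intervals reach up to 7.42 and 5.78 CPM.

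Tnfsf11 followed none of the other members. In Mmp9+ macrophages it had no UMI in either library, where the intervals reach up to 5.16 and 6.37 CPM. Fibroblasts, a stromal source of RANKL in bone and lymphoid tissue, held 41 UMIs (15.5 CPM, 11.1 to 21.0) in sGC Ctr and 64 UMIs (31.7 CPM, 24.4 to 40.5) in sGC ∆PC, and 33 of the 64 came from 1 cell, without which the level was 15.6 CPM. The highest level in sGC Ctr, 78.9 CPM (21.5 to 202), rested on 4 UMIs in 11 natural killer cells, and the 11 natural killer cells of sGC ∆PC had none. Cancer cells held most of the UMIs, 143 (68.4% of the library) and 114 (54.8%), at a level of 0.350 CPM in both. Tnfrsf11b, which encodes the decoy receptor osteoprotegerin, had 78 UMIs (29.5 CPM) and 37 UMIs (18.4 CPM) in fibroblasts. Csf1 was highest in granulocytes at 215 and 176 CPM (107 and 112 UMIs), with 88.8 and 108 CPM in fibroblasts. Il34, the second ligand of the CSF1 receptor, reached 69.0 and 87.1 CPM in pericytes (32 and 26 UMIs). Cancer cells held far more UMIs of both at lower levels. They held 22373 and 18923 Csf1 UMIs (54.7 and 58.1 CPM) and 2843 and 2034 Il34 UMIs (6.95 and 6.25 CPM).

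The Mmp9+ macrophages were not uniform. Ctsk UMIs per cell ran from 0 through a median of 74.5 to 428 in sGC Ctr, with reads in 37 of 48 cells, and from 0 through 13.5 to 394 in sGC ∆PC, with reads in 50 of 62. Acp5 ran from 0 through 145 to 624 (37 cells) and from 0 through 25 to 508 (55 cells). The 10 richest cells of each gene held 53.8% and 68.5% of the Ctsk UMIs and 54.1% and 63.3% of the Acp5 UMIs, so that a small number of cells set both sums. Nfatc1 was found in 38 and 31 cells, Atp6v0d2 in 36 and 47, Slc9b2 in 35 and 38, Tnfrsf11a in 32 and 23, Ocstamp in 28 and 27, Dcstamp in 20 and 19, and Oscar in 20 and 11. In sGC ∆PC the 10 richest cells held 97.4% of the Oscar UMIs.

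The members were found together in the same cells. They were chosen with their levels in these cells known, and detection rises with level. Other genes high in these cells were not counted in this way, so nothing is read from the shares. After each cell was thinned to 2000 UMIs, at least 5 members were detected in 23 of 44 Mmp9+ macrophages (52.3%) in sGC Ctr and 17 of 53 (32.1%) in sGC ∆PC, with a median of 5 and 4 members per cell. Without thinning the shares were 72.9% and 56.5%, and the medians 7.5 and 5. In macrophages outside the gate, 11 of 2761 (0.398%) and 10 of 2893 (0.346%) thinned cells held 5 or more. The shares were 0.0136% and 0.0270% in cancer cells, and no fibroblast reached 5. At the same 2000 UMIs, Ctsk was detected in 79.5% and 75.5% of Mmp9+ macrophages, 41.9% and 31.1% of fibroblasts, 4.31% and 6.16% of granulocytes and 0.586% and 2.09% of cancer cells. Acp5 was detected in 81.8% and 79.2% of Mmp9+ macrophages, 16.7% and 17.5% of T cells and 0.858% and 2.43% of cancer cells. Without thinning, macrophages outside the gate had Acp5 in 24.5% and 16.5% of cells and Ctsk in 6.42% and 7.59%. In Mmp9+ macrophages the unthinned shares were 77.1% and 88.7% for Acp5 and 77.1% and 80.6% for Ctsk.

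**Figure D2:**
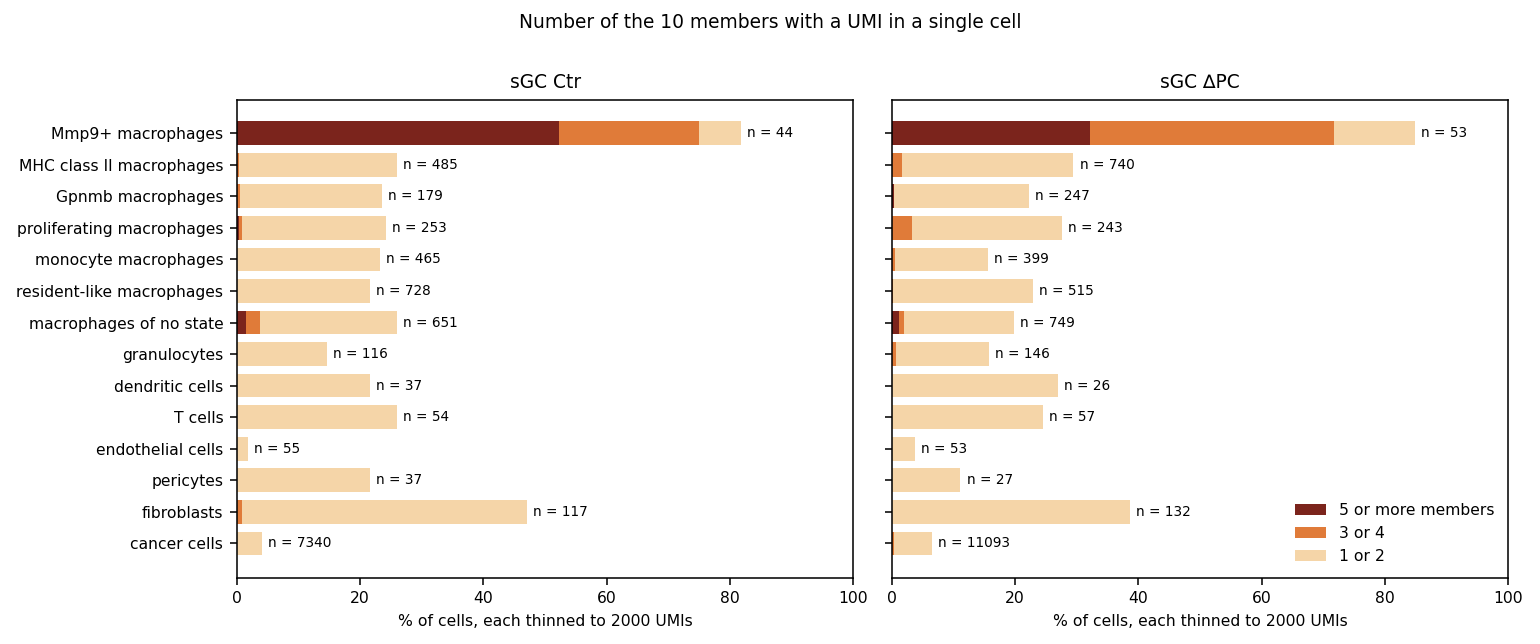
Share of cells (percent, stacked bars from 0) with 1 or 2, 3 or 4, or at least 5 members detected after thinning to 2000 UMIs, by class and library, with the number of cells (n) and without the natural killer cells. At least 5 members were seen in 52.3% and 32.1% of Mmp9+ macrophages and in 0.398% and 0.346% of the macrophages outside the gate.

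Against all other macrophages of the same library, 8 of the 9 members that had enough UMIs (at least 50 in each library) were at least 2-fold higher in the Mmp9+ macrophages in both libraries, where 4.39% of 11024 genes were at least 2-fold higher and 10.0% at least 2-fold lower. The members were selected on this contrast, so nothing is read from the count. The log2 ratio in sGC Ctr and sGC ∆PC was 8.11 and 6.68 for Oscar, 7.35 and 6.22 for Ctsk, 6.36 and 5.91 for Acp5, and 6.27 and 6.14 for Dcstamp. It was 6.04 and 5.41 for Slc9b2, 5.44 and 5.42 for Atp6v0d2, 4.90 and 5.00 for Ocstamp, and 3.54 and 3.04 for Nfatc1. Tnfrsf11a, at 0.87 and 0.90, was the member below 2-fold.

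A list of 42 other genes of the osteoclast pathway held 37 with enough UMIs. Of these, 12 were at least 2-fold higher in the Mmp9+ macrophages in both libraries and 4 at least 2-fold lower. Among all 11024 genes, 4.39% were higher and 10.0% lower, so the 4 lower genes are near that share. The list was chosen with earlier results of these data known, so nothing is read from its counts. One of the 12 is Mmp9 itself, which made the gate. The median log2 ratio over the list was 0.16 and 0.04, against -0.16 and -0.13 over all genes and 6.04 and 5.42 over the members. Of 8 tested genes of the resorption machinery, 7 were higher. Besides Mmp9 these were the membrane protease Mmp14 (log2 1.03 and 1.15), the chloride channel Clcn7 (1.72 and 1.69) and the creatine kinase Ckb (1.83 and 2.21). The others were the proton pump genes Tcirg1 (1.51 and 1.55), Atp6v1c1 (1.56 and 1.88) and Atp6v1b2 (2.61 and 2.26). The intervals of Mmp14 (from 0.84 and 0.95) and of Itgav, named next (from 0.96 and 0.85), reach below 2-fold in both libraries. All 3 tested genes of adhesion and the sealing zone were higher, namely Itgav, a subunit of the vitronectin receptor (1.21 and 1.14), the kinase Src (3.61 and 3.12) and Pstpip1 (1.93 and 1.61). Its partner subunit Itgb3 and carbonic anhydrase II (Car2), which supplies the protons, fell under the 50 UMI minimum, with 27 and 21 Itgb3 UMIs in the gate against 21 and 49 in all other macrophages, and 26 and 38 Car2 UMIs against 10 and 23.

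Most of the upstream genes on this list were not 2-fold higher in both libraries. The members Oscar (log2 8.11 and 6.68) and Nfatc1 (3.54 and 3.04), which also act upstream, are not on it. None of 8 signalling and co-stimulatory genes was 2-fold higher and 1 was lower, the receptor Trem2 (-1.32 and -1.47). Csf1r, the receptor for CSF1, was at 0.88 and 0.65, and it is also one of the markers that placed cells among the macrophages. Of 8 transcription factors, 2 were higher, Jdp2 (3.66 and 3.62) and Prdm1, which encodes the repressor BLIMP1 (3.02 and 2.68), and Fos was lower (-1.31 and -1.69). Of 4 inhibitors of osteoclast formation, none was higher and 2 were lower, namely the transcription factor Irf8 (-1.85 and -3.02) and the inhibitory receptor Lilrb4a (-2.78 and -2.94). None of the 5 other fusion genes, Cd9, Cd47, Sirpa, Cd44 and Itgb2, differed by 2-fold in both libraries, and neither did the ligand Csf1.

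**Figure D3:**
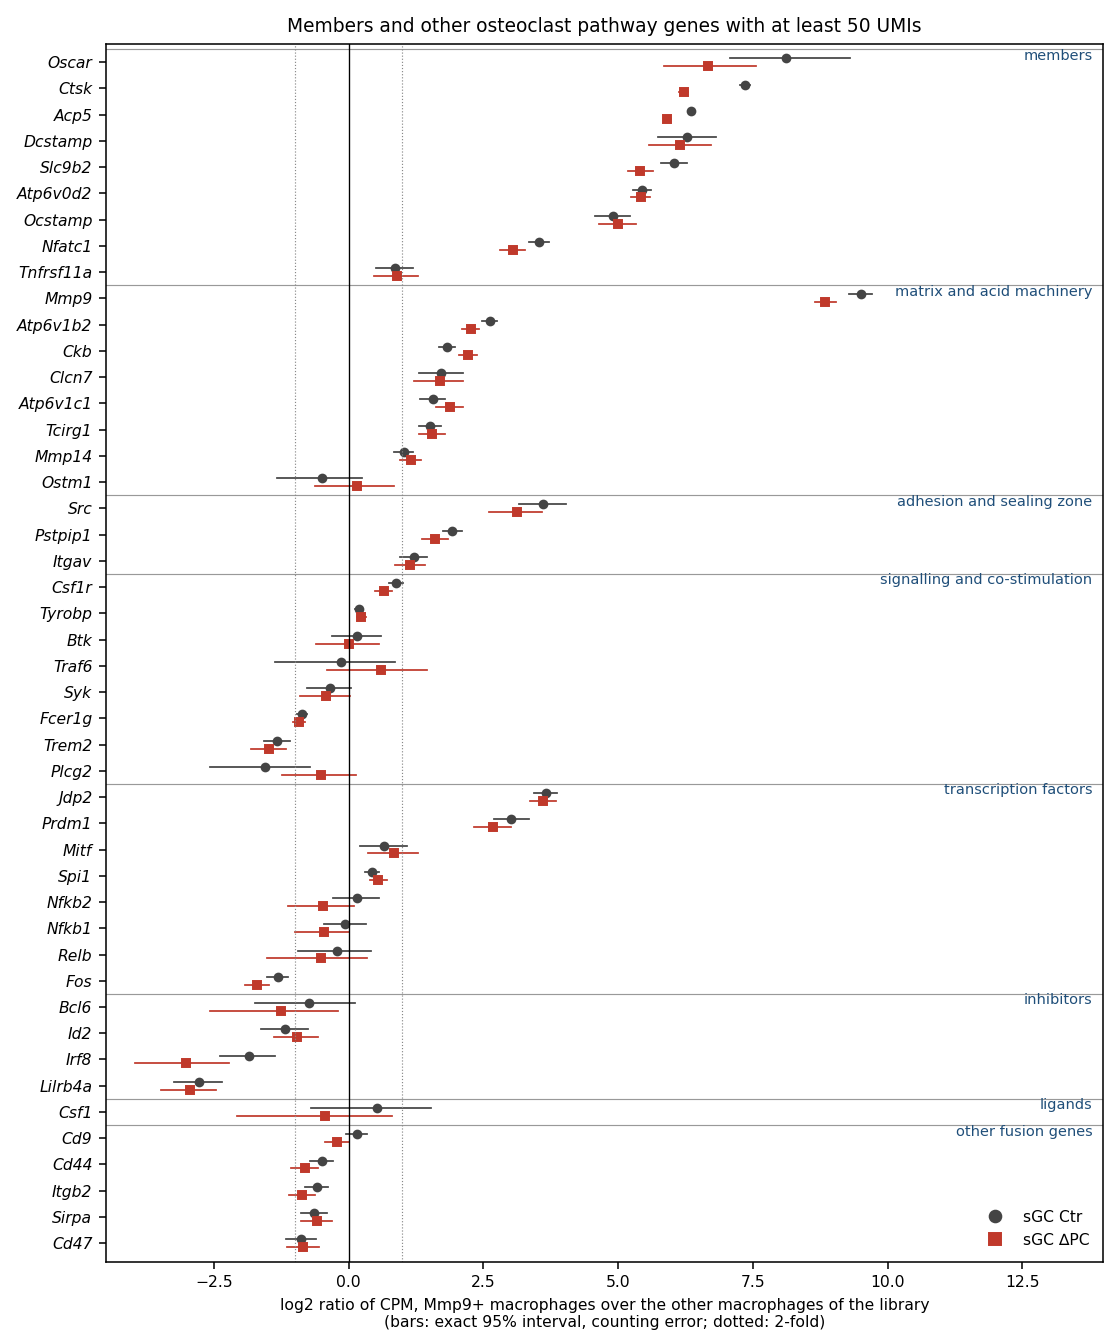
Log2 ratio of the level in Mmp9+ macrophages over all other macrophages for the members and for the pathway genes by role, with 1 point per library and counting intervals. The 8 plotted members other than Tnfrsf11a lie between 3.04 and 8.11, and the inhibitors Irf8 and Lilrb4a lie between -3.02 and -1.85.

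Cells rich in both Ctsk and Acp5 were also found outside the Mmp9 gate. With at least 20 UMIs of each gene per 10000, 39 macrophages of sGC Ctr and 69 of sGC ∆PC were rich in both, of which 32 and 46 were Mmp9+ macrophages and held 97.9% and 99.0% of the Ctsk UMIs of that state. The median depth of the rich macrophages was 15760 and 3287 UMIs, and a shallower cell meets this rule with fewer reads. The 7 and 23 such cells outside the gate held 60.6% and 73.2% of the Ctsk UMIs and 39.6% and 56.7% of the Acp5 UMIs of all macrophages outside it. Without them, Ctsk outside the gate was at 16.5 and 21.4 CPM instead of 41.7 and 79.3 CPM, and Acp5 was at 80.5 and 59.7 CPM instead of 133 and 137 CPM. Most of these cells, 6 and 16, belonged to macrophages of no state. The gate does not part them from the rest sharply, since 31 and 71 macrophages lay between 0.5 and 2 times its minimum and 114 and 195 held a single Mmp9 UMI. In unsupervised clusters made without the members, the clusters that led in Mmp9 held 100 and 60 cells, shared 33 and 16 of them with the gate (68.8% and 25.8% of the gate, 33.0% and 26.7% of the clusters), and carried 57.6% and 37.6% of all Ctsk UMIs and 63.1% and 34.4% of all Acp5 UMIs. Of their cells outside the gate, 38 and 20 were other macrophages. A further 7 and 3 met the rule of more than 1 class, 5 and 4 met none, and the rest were placed in classes other than macrophages.

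In several classes a member's level rested on 1 cell. In MHC class II macrophages of sGC Ctr, 1 cell of 14499 UMIs with 8 members held 463 of 815 Acp5 UMIs and 33 of 64 Ctsk UMIs, and without it Acp5 was at 73.5 CPM instead of 170 CPM. In monocyte macrophages of sGC ∆PC, 1 cell of 24832 UMIs with 7 members held 117 of 142 Ctsk UMIs and 196 of 289 Acp5 UMIs, and without it the levels were 7.96 and 29.6 CPM instead of 44.9 and 91.3 CPM. In fibroblasts of sGC Ctr, 1 cell of 63374 UMIs with 7 members held 97 of 142 Acp5 UMIs and all 24 Atp6v0d2 UMIs, and without it Acp5 was at 17.4 CPM instead of 53.6 CPM.

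The balance of Ctsk and Acp5 set the fibroblasts apart from the macrophages. Fibroblasts held 6.15 Ctsk UMIs per Acp5 UMI (5.14 to 7.39) in sGC Ctr and 13.9 (9.82 to 20.3) in sGC ∆PC, and pericytes 11.3 and 8.67, although on 4 and 3 Acp5 UMIs. Without the cell richest in Acp5, which in sGC Ctr held 97 of 142 Acp5 UMIs and 131 of 873 Ctsk UMIs, the fibroblasts held 16.5 in sGC Ctr and 15.2 in sGC ∆PC. In Mmp9+ macrophages the ratio was 0.626 and 0.715. MHC class II macrophages were lower still, at 0.0785 and 0.194. Fibroblasts thus carried Ctsk (873 and 473 UMIs) with far fewer UMIs of every other member. Among these was Tnfsf11 (41 and 64 UMIs), for which they stood second in sGC Ctr and first in sGC ∆PC. No fibroblast held 20 UMIs of both Ctsk and Acp5 per 10000, although the sGC Ctr cell with 131 and 97 of them carried both. Cancer cells held 0.557 and 0.651 Ctsk UMIs per Acp5 UMI, and cells of more than 1 class 0.622 and 0.603, close to the Mmp9+ macrophages. Other ratios to Acp5 were near in some cases and far in others. Cancer cells held 0.0945 and 0.0824 Atp6v0d2 UMIs per Acp5 UMI against 0.0729 and 0.0990 in Mmp9+ macrophages. For Ocstamp per Acp5 UMI the values were 0.0231 and 0.0308 against 0.0167 and 0.0245. Cancer cells lay far from the Mmp9+ macrophages for Nfatc1 per Acp5 UMI, at 0.763 and 0.362 against 0.0416 and 0.0369. The same held for Tnfrsf11a per Acp5 UMI, at 0.677 and 0.356 against 0.00977 and 0.0111. Whether free RNA or joined cells contributed to the cancer cell values was not tested.

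**Figure D4:**
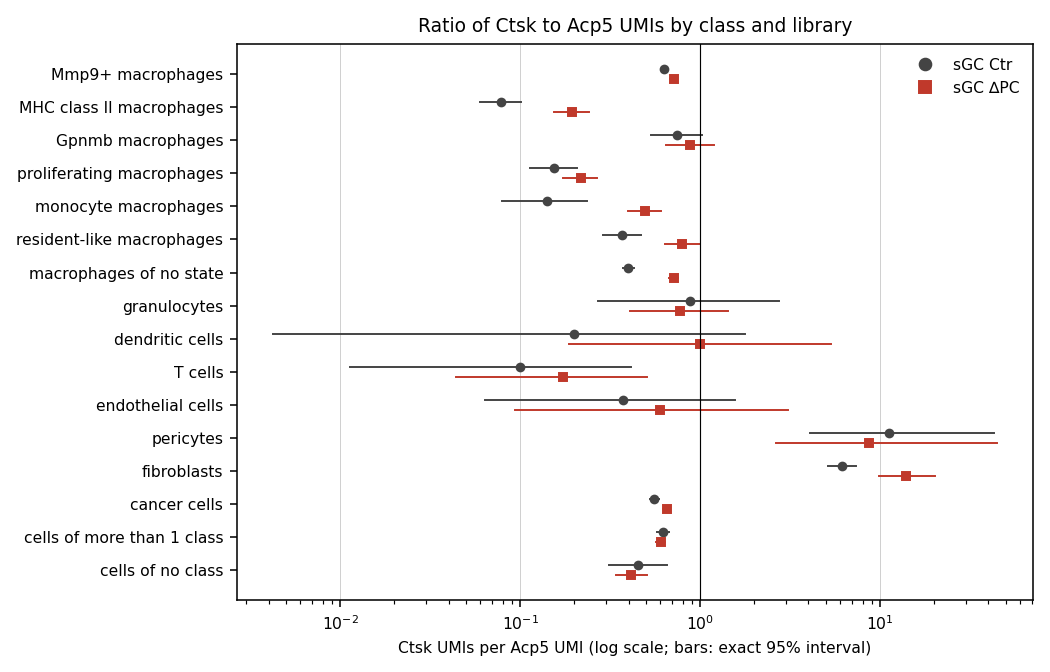
Ctsk UMIs per Acp5 UMI (log axis) in each class, with 1 point per library and exact 95% counting intervals. Fibroblasts sit at 6.15 and 13.9, above the Mmp9+ macrophages at 0.626 and 0.715 and the MHC class II macrophages at 0.0785 and 0.194, and the lower fibroblast point rests on 1 cell, without which it is 16.5.

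Between the libraries, the question was whether the set differed with loss of sGC in pericytes. In the Mmp9+ macrophages no member of 9 with enough UMIs differed by 2-fold, against 0.989% of 3236 genes that were at least 2-fold higher in sGC ∆PC and 1.51% that were at least 2-fold lower. On the log2 scale, sGC ∆PC over sGC Ctr was -0.21 (-0.27 to -0.15) for Ctsk, -0.40 (-0.45 to -0.35) for Acp5 and -0.58 (-0.85 to -0.31) for Nfatc1. The intervals of those 3 exclude 0 by counting error alone. That leaves out the spread between cells, although 10 cells held 53.8% and 68.5% of the Ctsk UMIs. It also leaves out the spread between mice, which 1 pooled library in each group cannot give. Atp6v0d2 was at 0.04, Ocstamp at 0.15, Dcstamp at -0.08, Slc9b2 at -0.10, Tnfrsf11a at -0.22 and Oscar at -0.28, each with an interval that includes 0. The median over the members was -0.21 and over all genes -0.01, and the gate gene Mmp9 was itself at -0.21. The share of macrophages in the gate, 1.67% and 1.42%, had overlapping intervals. The Ctsk ratio ranged from -0.63 with every class and state minimum doubled to 0.08 in unsupervised clusters, so that its direction depended on how the cells were drawn.

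In macrophages outside the gate, 0 of 8 members differed by 2-fold, where 1.39% of 12121 genes were higher and 0.338% lower. Ctsk came nearest at 0.93 (0.83 to 1.03). Cells rich in Ctsk and Acp5 were 7 of 2819 and 23 of 4319, with a median depth of 17997 and 2698 UMIs. The rule is per 10000 UMIs, so a shallower cell meets it with fewer reads, and the part of depth was not tested. Without the rich cells, the log2 ratio of Ctsk was 0.38 and that of Acp5, 0.04 with them, was -0.43. Without only the richest cell of each library the Ctsk ratio was 1.10, past 2-fold, as it was at 1.35 with every minimum at 0.5 times and 1.10 in thinned cells, while it was 0.37 at 2 times the minimum. In MHC class II macrophages, 2 of 7 members were at least 2-fold lower in sGC ∆PC, where 0.282% of 9562 genes were lower and 0.732% higher. They were Acp5 (-1.24) and Dcstamp (-1.02), and Acp5 was at -0.09 without the richest cell of each library. Ctsk moved the other way, from 0.06 to 0.95.

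In proliferating macrophages, 3 of 6 members were at least 2-fold higher in sGC ∆PC and none lower, where 1.29% of 8859 genes were higher and 0.474% lower. Ctsk was at 12.0 CPM (54 UMIs) in sGC Ctr and 36.0 CPM (104 UMIs) in sGC ∆PC, a log2 ratio of 1.58 (1.09 to 2.08). Acp5 was at 77.7 and 166 CPM (1.09, 0.89 to 1.29) and Slc9b2 at 5.57 and 15.9 CPM (1.51, 0.78 to 2.28). The 3 ratios were 2.00, 1.08 and 1.39 without the richest cell of each library, but fell under 2-fold at 2 times every minimum (0.67, 0.19 and 0.33) and with cells of more than 1 class kept (0.36, 0.55 and 0.46). Acp5 was also under it at 0.5 times every minimum (0.80) and Ctsk in thinned cells (0.52). In monocyte macrophages, 2 of 5 members were higher and none lower, where 0.597% of 8043 genes were higher and 0.149% lower. Ctsk was at 3.12 and Acp5 at 1.31, and without the richest cell of each library they were at 0.71 and -0.24. In resident-like macrophages, 1 of 4 members was higher and none lower, where 0.992% of 10077 genes were higher and 0.298% lower. That was Ctsk, at 9.68 and 23.9 CPM (1.30, 0.92 to 1.69), with 1.29 without the richest cells, 0.83 at 2 times the minimum and 0.26 in unsupervised clusters. In macrophages of no state, no member of 7 was higher and 1 was lower, where 1.74% of 10017 genes were higher and 0.190% lower. Ocstamp was the lower one at 8.39 and 3.43 CPM (-1.29, -2.003 to -0.61), with -0.82 at 2 times the minimum, and Ctsk was at 0.68. In Gpnmb macrophages, none of 5 members differed by 2-fold, where 0.737% of 6916 genes were higher and 0.376% lower.

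In fibroblasts, 1 of 4 members was at least 2-fold higher in sGC ∆PC and 1 lower, where 0.942% and 1.17% of 7750 genes were. Tnfsf11 was higher at 1.04 and Acp5 lower at -1.67, and without the richest cell of each library these were 0.27 and -0.15. Ctsk, with the most reads, was at -0.49. In cancer cells, 3 of 10 members were at least 2-fold higher in sGC ∆PC and none lower, where 3.44% of 15267 genes were higher and 0.151% lower. These were Ctsk at 4.88 and 10.7 CPM (1.14), Ocstamp at 0.203 and 0.507 CPM (1.32) and Dcstamp at 0.0929 and 0.224 CPM (1.27), with Oscar just under at 1.00 and Acp5 at 0.91. Nfatc1, Tnfrsf11a and Tnfsf11 were at -0.16, -0.02 and 0.00. Their shares of UMIs in cancer cells were larger than those of the other members. In sGC ∆PC the share of Oscar, 45.6%, was close to that of Tnfrsf11a, 46.2%. Cells of more than 1 class made up 6.71% of the cells of sGC Ctr and 17.97% of those of sGC ∆PC. Rich in both Ctsk and Acp5 were 2 of 7420 and 20 of 11566 cancer cells, at a median depth of 62944.5 and 7014 UMIs. Without these rich cells the ratios of Ctsk and Acp5 were 1.13 and 0.97. The macrophage marker list was also higher in cancer cells of sGC ∆PC, at 1.29 UMIs per 10000 against 0.694, with all 8 markers detected in both. The part of such reads in the cancer cell ratios was not tested.

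**Figure D5:**
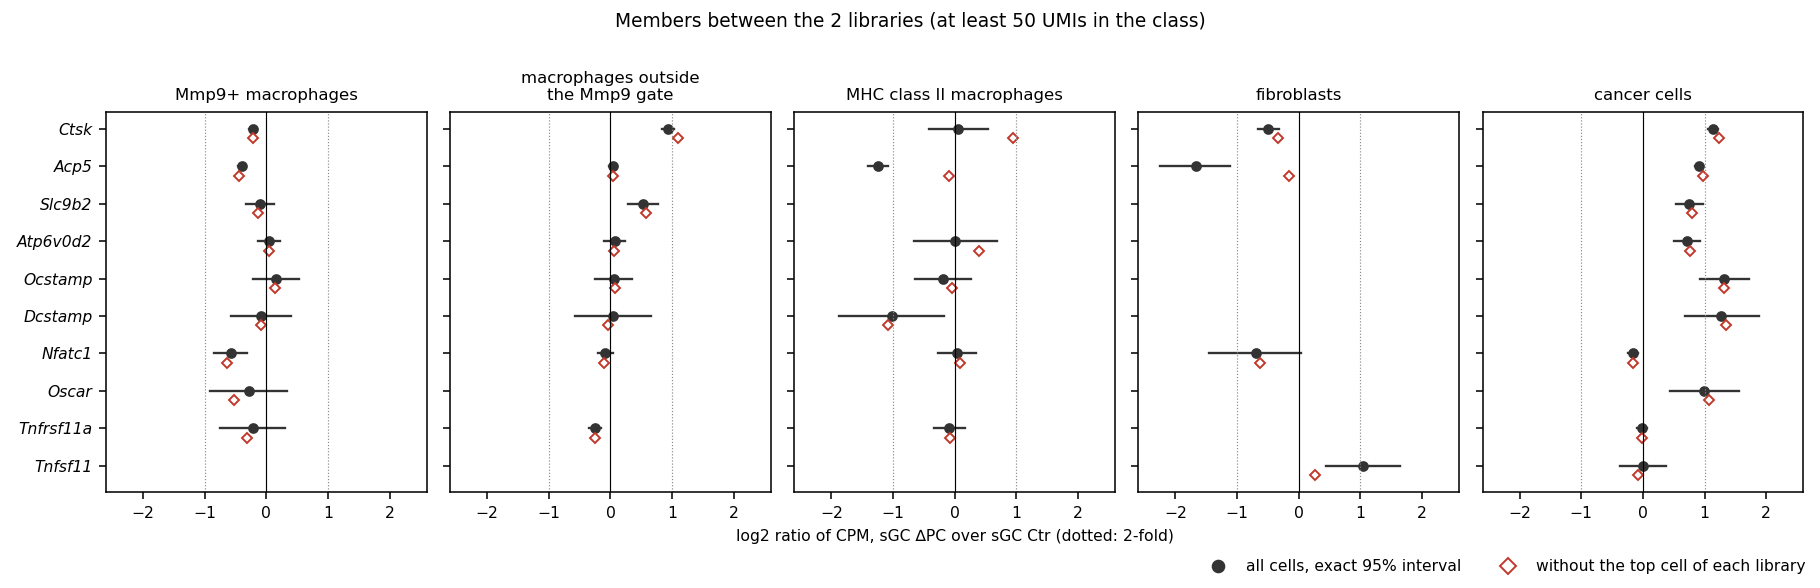
Log2 ratio of sGC ∆PC over sGC Ctr for the members in 5 classes, with exact 95% counting intervals, and as open diamonds the same ratio without the cell of each library richest in the gene. In Mmp9+ macrophages all 9 members lie between -0.58 and 0.15, and in cancer cells Ctsk lies at 1.14.

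Across the classes of both libraries (30 profiles, which share libraries and depth), the genes whose log2 level was most like each member's were named for the members with at least 1000 UMIs. Acp5 and Atp6v0d2 were most like each other (Pearson's r = 0.89). Bdh2, which encodes a dehydrogenase, was among the top 3 for Ctsk (0.84), Acp5 (0.83) and Slc9b2 (0.82), and Ctsk and Slc9b2 were near each other at 0.80. Further genes of the proton pump, Atp6v1g1 (0.82) and Atp6v1c1 (0.81), were closest to Atp6v0d2 after Acp5. Ocstamp was nearest to Grk3 (0.83), Acp5 (0.82) and Matk (0.78), and Nfatc1 to Ivns1abp and Sec11c (both 0.85). The receptor gene Tnfrsf11a had other neighbours, Ciao2a (0.93), Gpx1 (0.90) and Lamtor1 (0.88), and its r was 0.61 with Acp5 and 0.25 with Ctsk.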

How the data were processed

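Single cells of LLC tumors were sequenced by the authors with 10x 3′ chemistry, and the deposited matrices hold raw UMI counts per gene and barcode, made per the labels with Cell Ranger 6.1.1 on mm10, in 1 library per group (15007 and 25631 barcodes, 487859656 and 436352742 UMIs). The members and lists were chosen with earlier results of these data known. Barcodes with under 10% mitochondrial UMIs and within 3 median absolute deviations of the median log UMIs and log genes were kept (81.4% and 87.8%). A cell entered a class when its marker UMIs per 10000 reached a minimum set at a low point of the score distribution, after seeing it (macrophages 8, granulocytes 64, fibroblasts 128, cancer cells 4, Mmp9 4, MHC class II 32), with at least 2 markers, or 2 UMIs for a macrophage state. Mmp9 was read first, and the other states by highest score relative to the minimum. Cells that met more than 1 broad rule were left out, which was the treatment of doublets, and 555 and 1800 cells met none. UMIs were summed per class and library. Intervals are exact Poisson, binomial or conditional binomial intervals. Ratios were set beside those of all genes whose UMIs summed over the libraries came to 50 or more (50 in each library for Mmp9+ over other macrophages), with 0.5 added for the all-gene ratios only, and 2-fold was the limit for a call. With 1 library per group no p-value was computed. Cells were thinned to 2000 UMIs for shares, leaving out shallower cells. The genes named are the 10 members, a list of 42 pathway genes (1 further gene of the list is not reported here), and the 3 genes most like each member with at least 1000 UMIs (log2 of CPM plus 1, genes with a mean of at least 10 CPM). Alternatives were 0.5 and 2 times every minimum, cells of more than 1 class kept, no filter by deviation (at least 200 genes), Leiden clusters per library (3000 variable genes, 20 components, 15 neighbors, resolution 1) and other scalings. The calculations were tested on simulated data and used Python 3.11.15, numpy 2.4.6, scipy 1.17.1, scanpy 1.11.5, leidenalg 0.10.2 and igraph 0.11.9. Promoter windows come from RefSeq tables. Authors' comparisons were not used.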

Additional observations from a re-analysis of the deposited data

Results flagged for a closer look

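Part of the Ctsk, Acp5 and Dcstamp reads lay in cells that were placed in no single class. Cells that met the marker rule of more than 1 class held 10.5% of the Ctsk UMIs and 9.84% of the Acp5 UMIs of the sGC Ctr library, and 15.4% and 17.0% of those of the sGC ∆PC library. Such cells were 6.71% and 17.97% of the kept cells and held 5.56% and 11.4% of all kept UMIs. In them, 4 and 28 cells held at least 20 UMIs of both genes per 10000, with a median depth of 23833 and 4720.5 UMIs. Cells of no class held 12.6% (sGC Ctr, 28 UMIs) and 13.3% (sGC ∆PC, 36 UMIs) of the Dcstamp UMIs. They were 4.54% and 8.00% of the kept cells and held 0.684% and 1.14% of all kept UMIs. What these cells are was not tested.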

How the results depend on the processing

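In both libraries 9 of 10 members kept their highest level in Mmp9+ macrophages under all 6 alternatives run for it. The share of all genes that did so was not counted. The log2 ratio between the libraries in Mmp9+ macrophages moved with the drawing of the cells. For Ctsk it was -0.085 with every minimum at 0.5 times, -0.63 at 2 times, -0.36 with cells of more than 1 class kept, -0.51 in thinned cells, -0.33 with each cell weighing the same, and 0.083, a reversed direction, in Leiden clusters. For Acp5 it was -0.27, -0.63, -0.56, -0.59 and -0.26 under the first 5 of these. The share of macrophages in the gate was 1.11% in sGC Ctr at 2 times the minimum, 0.972% in thinned cells, and 3.00% and 2.26% in the clusters. At 2 times the minimum the gate held 29 of 2620 macrophages in sGC Ctr and 48 of 4303 in sGC ∆PC. Among macrophages of at least 2000 UMIs, those left for thinning, 44 of 2805 in sGC Ctr and 53 of 2946 in sGC ∆PC were in the gate. In neither of these cases was the sGC Ctr share the larger. The 0.972% given for thinned cells is lower than the share from these sGC Ctr counts. Why it differs was not tested, so no order of the libraries is read from it. Ctsk UMIs per Acp5 UMI moved to 0.533 in clusters of sGC Ctr, to 0.6103 at 2 times the minimum in sGC ∆PC, and to 16.1 in fibroblasts of sGC Ctr at 0.5 times and 16.5 without their cell richest in Acp5. Mmp9+ macrophages with at least 5 members were 72.9% and 56.5% on all UMIs. Reversed directions were also seen for Acp5 in MHC class II macrophages (0.093 in clusters) and monocyte macrophages (-0.80 at 2 times, -0.36 thinned, -0.24 without the richest cell), for Atp6v0d2 (-0.53 at 2 times, -0.16 with cells of more than 1 class, -0.13 thinned) and Nfatc1 (-0.11 with cells of more than 1 class, -0.20 with equal weights) in proliferating macrophages, and for Tnfsf11 in fibroblasts (-0.88 at 2 times, -0.15 with equal weights). The causes were not tested. Leaving out the richest cell, for the Ctsk to Acp5 ratio the cell richest in Acp5, and leaving out cells rich in both Ctsk and Acp5 were chosen after seeing the data. Fibroblasts gave no value in the clusters. No paired analysis was possible because each group has 1 library, and for the same reason no library could be left out. Ratios on few UMIs (Oscar, Dcstamp, Tnfsf11) are limited by depth, which was lower per cell in sGC ∆PC.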
